A study of Mus musculus with 9 samples.

Results

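The genotype by STZ interaction asks which responses of the kidney cortex to diabetes differed between mice with and without the von Hippel-Lindau gene (Vhl) in the early proximal tubule. For each gene it is the difference of 2 differences on the log2 scale, the STZ change in Vhl-deleted mice minus the STZ change in control mice. All 9 libraries of the series entered it, and it was computed for all 18657 genes of the deposited table of quantile normalized values. A negative value means that STZ raised the gene less, or lowered it more, in the deleted mice than in controls. Over the 18657 genes the interaction had a median of 0.02, and 5% of the genes lay under -1.25 and 5% above 1.13. The test was made on 14437 genes whose values averaged 10 or more across the libraries.

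The study compared whole kidney cortex of male littermates on a mixed C57BL/6 and FVB background, all of them carrying floxed Vhl (Vhl fl/fl). Control mice (con, 3 libraries) carried the floxed gene without Cre, and VHLΔPT mice (2 libraries) also carried Sglt2-Cre, whose Sglt2 promoter limits the deletion to the proximal tubule's early part (S1 and S2), where it is partial. Diabetes was induced at 12 weeks of age by intraperitoneal streptozotocin (STZ), 100 mg/kg on 2 consecutive days, in con/STZ (2 libraries) and VHLΔPT/STZ (2 libraries), and the mice without STZ received citrate buffer. Cortices were taken 10 weeks later, and the RNA of 2 mice was pooled for each library, so the spread given here is the spread between pools. In such bulk tissue, fewer cells of a type and less RNA per cell cannot be told apart.

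STZ is a glucose analogue that enters the beta cells of the pancreas and destroys them, which leaves the animal with little insulin and high blood glucose. The Vhl protein marks the hypoxia-inducible factors HIF-1α and HIF-2α for degradation when oxygen is sufficient, so that its loss keeps the HIF pathway on. The proximal tubule reabsorbs filtered glucose, sodium and protein, and this work consumes much of the oxygen used by the cortex. An interaction of 0 means that the effects of STZ and of the deletion add up on the log2 scale. It departs from 0 when the response to STZ depends on the genotype.

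Vhl itself lay at 555, 522 and 528 in con, 434 and 470 in VHLΔPT, 501 and 527 in con/STZ, and 516.0 and 516.5 in VHLΔPT/STZ. The library values of VHLΔPT were below all others, and those of VHLΔPT/STZ lay within the range of the mice with an intact gene. The interaction of Vhl was 0.25 (SE 0.14, adjusted p = 0.289, limma), and its 95% interval ran from -0.07 to 0.57. The value is for the whole gene in the whole cortex, so it holds the cells that the Sglt2 promoter does not reach.

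Markers of the cortex were present in every library. Lrp2, the endocytic receptor megalin of the proximal tubule, lay between 36699 and 72919. The podocyte gene Nphs1 lay between 384 and 661 and the fat cell gene Adipoq between 22.2 and 811. Xist, expressed in female cells, stood at 3205 in con/STZ 2 and between 0 and 6.22 in the other 8 libraries, although all mice are described as male. Each library also leaned towards long or short genes. The correlation of a gene's length with its deviation from the mean ran from -0.455 to -0.19 in con, from 0.188 to 0.269 in VHLΔPT and con/STZ, and was 0.184 and -0.057 in the 2 VHLΔPT/STZ libraries, which also differed on the first principal component (4.1 and 33.5). The part of these library features in the results was not tested, and the counts without single libraries are given with the calls.

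The promoters of 5 genes are shown first, since the results below turn on them and move in both directions. Azgp1 and Ceacam2 had the largest positive interactions, while Slc12a1, Slc8a1 and Nox4 are genes of salt, calcium and oxidant handling with negative ones. The windows are RefSeq sequences of GRCm38.p6 from 250 bases before to 50 bases after the transcription start. Capitals mark the core letters of the HIF binding site, ACGTG or GCGTG, or on the other strand CACGT or CACGC, which overlap each other where the letters read CACGTG.
Azgp1: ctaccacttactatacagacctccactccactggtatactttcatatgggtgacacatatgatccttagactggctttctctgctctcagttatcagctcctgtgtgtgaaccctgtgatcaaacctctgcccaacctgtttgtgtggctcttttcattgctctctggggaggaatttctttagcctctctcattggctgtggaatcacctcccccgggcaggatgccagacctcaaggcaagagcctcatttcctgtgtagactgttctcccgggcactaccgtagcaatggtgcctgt
Ceacam2: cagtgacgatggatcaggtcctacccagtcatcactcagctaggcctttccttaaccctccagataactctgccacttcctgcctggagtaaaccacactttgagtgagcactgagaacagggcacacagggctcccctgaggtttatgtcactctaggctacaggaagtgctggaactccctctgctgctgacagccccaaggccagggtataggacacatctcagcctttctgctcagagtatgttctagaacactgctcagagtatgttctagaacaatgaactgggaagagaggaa
Slc12a1: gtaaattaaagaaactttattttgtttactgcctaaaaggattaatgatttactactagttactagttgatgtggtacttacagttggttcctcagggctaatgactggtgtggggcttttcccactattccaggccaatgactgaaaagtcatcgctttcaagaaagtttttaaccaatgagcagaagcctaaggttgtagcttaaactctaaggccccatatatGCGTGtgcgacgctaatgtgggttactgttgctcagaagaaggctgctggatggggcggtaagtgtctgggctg
Slc8a1: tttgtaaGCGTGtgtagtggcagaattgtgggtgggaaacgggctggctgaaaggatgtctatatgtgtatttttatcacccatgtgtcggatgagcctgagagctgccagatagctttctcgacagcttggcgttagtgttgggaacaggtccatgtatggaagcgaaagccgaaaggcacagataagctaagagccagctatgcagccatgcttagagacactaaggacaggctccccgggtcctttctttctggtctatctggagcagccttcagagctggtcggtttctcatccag
Nox4: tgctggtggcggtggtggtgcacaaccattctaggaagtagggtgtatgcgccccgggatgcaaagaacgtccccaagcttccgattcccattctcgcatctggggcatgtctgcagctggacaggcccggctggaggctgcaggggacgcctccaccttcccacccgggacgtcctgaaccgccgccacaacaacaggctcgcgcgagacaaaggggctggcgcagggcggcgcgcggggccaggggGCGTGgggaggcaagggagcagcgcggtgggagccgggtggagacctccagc
The cores stood once each in the Slc12a1, Slc8a1 and Nox4 windows and in neither the Azgp1 nor the Ceacam2 window. Of 27025 promoters of the same length, 43.8% hold such a core, so its presence is common. Among the genes tested that have such a window, 61.0% hold one. The share was 66.2% for genes called lower and 72.2% for genes called higher, which was not tested. The 5 windows shown therefore do not stand for the called sets. A match describes letters only, and a missing match says only that the letters are not in this window. The windows lie at chr5:137981271-137981570 on the plus strand for Azgp1, chr7:25539955-25540254 on the minus strand for Ceacam2, chr2:125152350-125152649 on the plus strand for Slc12a1, chr17:81738338-81738637 on the minus strand for Slc8a1 and chr7:87246399-87246698 on the plus strand for Nox4.

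Far more genes were called for STZ in control mice than in VHLΔPT mice. In controls, 2261 of the 14437 genes were called (15.7%), 1269 higher and 992 lower, a call being an adjusted p below 0.05 together with more than a 1.5-fold difference. In VHLΔPT mice a single gene, Azgp1, was called (0.00693%), while 1593 genes had an unadjusted p under 0.05, against 6088 in controls. The 2 VHLΔPT/STZ libraries stood apart on the first principal component (4.1 and 33.5). The part of this difference between pools in the count was not tested. The interaction itself was called for 248 genes (1.72%), 204 lower (1.41%) and 44 higher (0.305%), with adjusted p values between 0.0211 and 0.0494. The median size of the STZ change over all genes was 0.33 on the log2 scale in con and 0.18 in VHLΔPT.

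The count of calls lay close to its threshold. Leaving out 1 library moved the genes called lower between 0 and 520 and those called higher between 0 and 186, the largest numbers being without VHLΔPT/STZ 1. Without con 3, VHLΔPT 1 or VHLΔPT 2, 0 of the 248 genes were called, which holds for each call named below, and without con/STZ 2, the library with Xist, 2 genes were called lower and 2 higher. In each of these 9 fits all 248 genes kept their sign, and at least 245 kept a fold over 1.5. The genes were chosen on the full fit, and each of these fits reuses all but 1 of its libraries. This was therefore largely set in advance and is no separate evidence of stability. Fitting the table after the length trend was removed from each library left 2 calls, Azgp1 (9.00) and the predicted gene Gm38394 (-3.94), with 212 of the called genes still under an unadjusted p of 0.05. Removing VHLΔPT/STZ 1 raised the genes called for STZ in VHLΔPT mice to 211, and removing VHLΔPT/STZ 2 lowered them to 0.

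**Figure D1:**
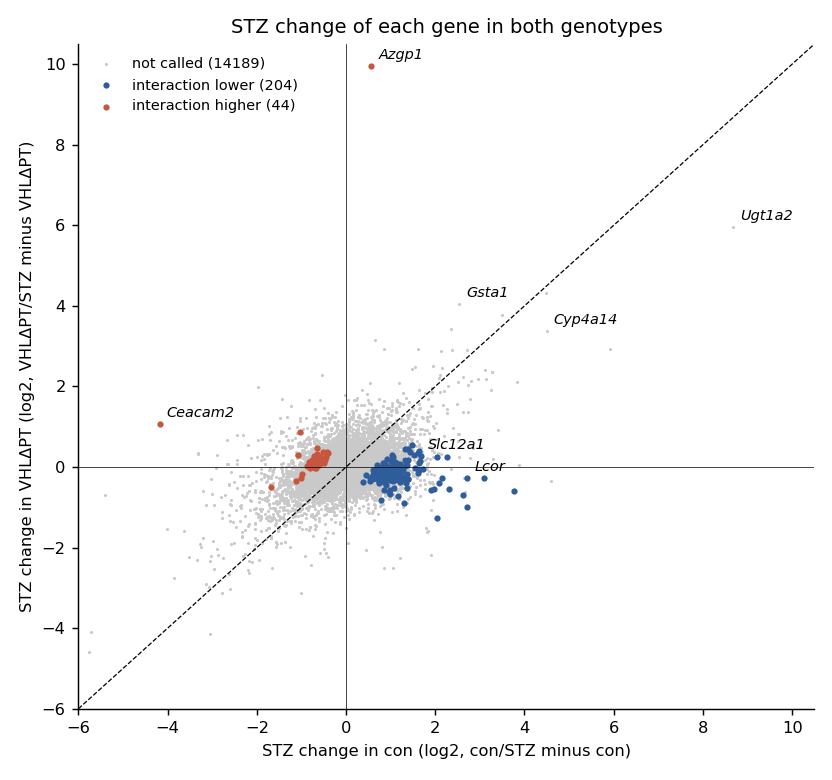
Each point is 1 of 14437 genes, with its STZ change in con on the x axis and in VHLΔPT on the y axis (log2). Blue points are the 204 genes with a lower and red points the 44 with a higher interaction, and the dashed line marks equal change. Blue points lie to the right of 0 near the horizontal line, Azgp1 stands alone at the top, and Cyp4a14 lies high in both, at 4.50 and 3.38.

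Most of the 204 genes with a lower interaction rose in diabetic controls and hardly moved in diabetic VHLΔPT mice. In 190 of them the STZ change was over 1.5-fold up in con and within 1.5-fold in VHLΔPT, in 9 it was up in con and over 1.5-fold down in VHLΔPT, and in 5 it was within 1.5-fold in both. Their median STZ change was 0.96 in con and -0.15 in VHLΔPT. Their median genotype change was 0.70 without STZ and -0.39 with STZ, so at the median the deleted mice had the higher level without STZ and the lower level with it. Against con, the medians of VHLΔPT, con/STZ and VHLΔPT/STZ were 0.70, 0.96 and 0.58. These comparisons share the con libraries, and the sign of the interaction ties them to each other.

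The 44 genes with a higher interaction had the reverse pattern. Of these, 28 fell by over 1.5-fold in diabetic controls and stayed within 1.5-fold in VHLΔPT mice, 2 fell in con and rose in VHLΔPT, 13 stayed within 1.5-fold in both, and 1, Azgp1, rose in VHLΔPT alone by this measure. Their median STZ change was -0.67 in con and 0.18 in VHLΔPT. Against con, the medians were -0.52 in VHLΔPT, -0.67 in con/STZ and -0.35 in VHLΔPT/STZ. The 2 sets differed in gene length, with a median merged exon length of 11088 bases in the lower and 2051 bases in the higher set, against 4307 bases over all genes tested.

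**Figure D2:**
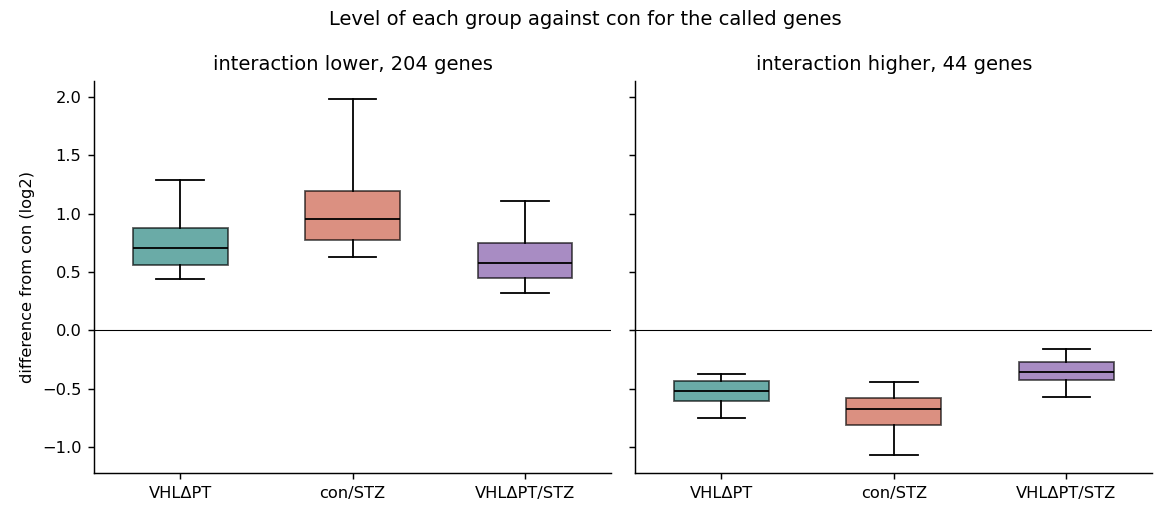
Log2 difference of each group mean from con for the 204 genes with a lower interaction (left) and the 44 with a higher one (right). Boxes span the 25th to the 75th percentile around the median line and whiskers run from the 5th to the 95th percentile. In both panels con/STZ lies farthest from con and VHLΔPT/STZ lies nearest, with medians of 0.58 and -0.35.

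Azgp1 encodes zinc-alpha-2-glycoprotein, a secreted protein with an MHC class I-like fold that mobilizes lipid from fat cells. Its gene lies on chromosome 5 at 137981520 to 137990233 (GRCm38), and it met the minimum mean of 10 only through VHLΔPT/STZ, the group where it is high, so its call is a description of that group. It stood at 0.11, 1.11 and 2 in con, 0.67 and 0 in VHLΔPT, 3 and 1 in con/STZ, and 1199 and 1358 in VHLΔPT/STZ. Only the diabetic VHLΔPT libraries held it at an appreciable level, and no other library exceeded 3. The interaction was 9.39 (SE 0.83, adjusted p = 0.0211), the largest of the 14437 genes, and 6.85 with a pseudocount of 10, since a ratio to values this low depends on the pseudocount. It was called in 6 of the 9 fits that left out 1 library, in which it ran from 8.89 to 9.89 with adjusted p values from 0.0174 to 0.113.

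Ceacam2, an adhesion molecule of the carcinoembryonic antigen family, fell in diabetic controls, while its change in diabetic VHLΔPT mice did not pass. It lay at 272, 397 and 317 in con, 131 and 129 in VHLΔPT, 9.33 and 30.2 in con/STZ, and 213 and 349 in VHLΔPT/STZ. The con/STZ libraries were the lowest of all and did not overlap any other group, while VHLΔPT/STZ overlapped con. STZ changed it by -4.18 in con (adjusted p = 0.00137) and by 1.06 in VHLΔPT (adjusted p = 0.446), which gave an interaction of 5.24 (SE 0.62, adjusted p = 0.0286). Its close paralog Ceacam1, with which it can share reads, had an interaction of -0.23 and a 95% interval from -0.77 to 0.31.

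**Figure D3:**
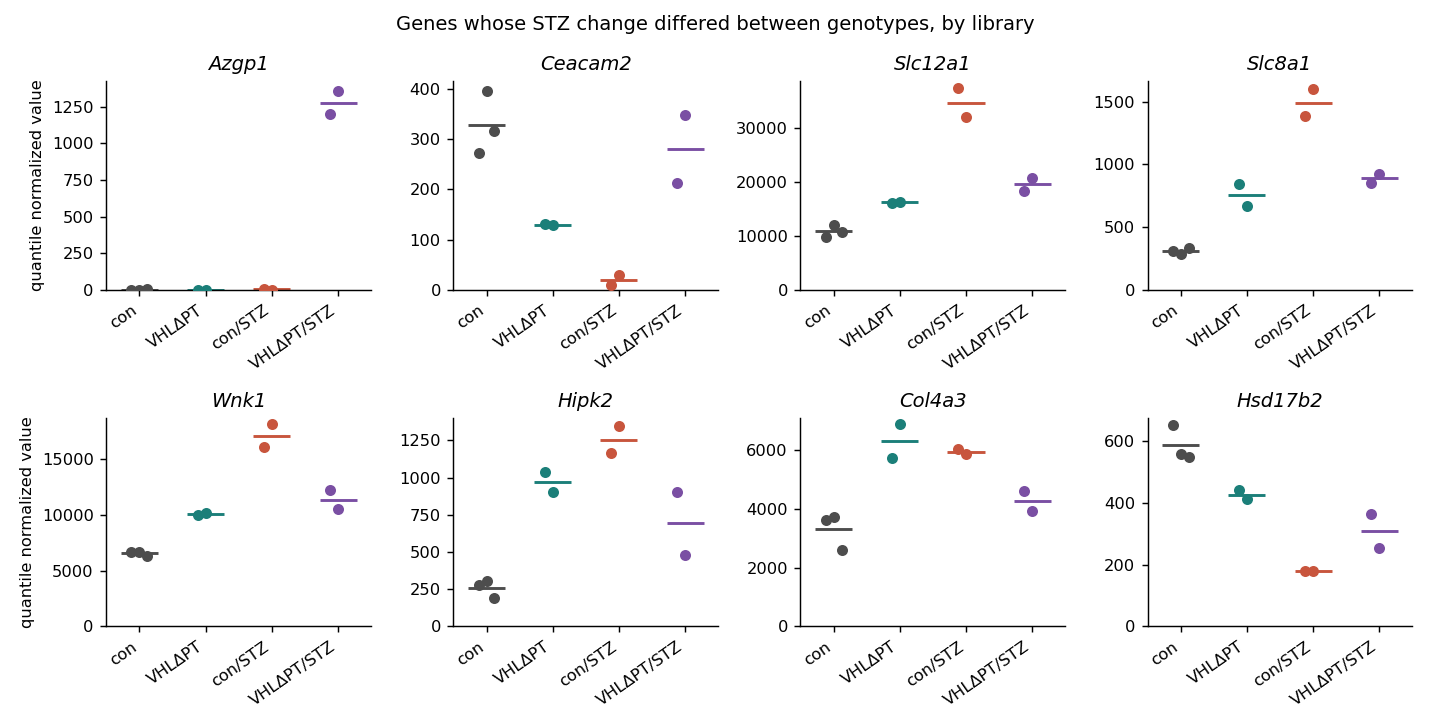
Quantile normalized value of 8 genes in every library, by group. Points are libraries of 2 pooled mice, horizontal lines are group means, and each y axis starts at 0. Azgp1 is near 0 outside VHLΔPT/STZ, Ceacam2 is lowest in con/STZ, and the 5 genes from Slc12a1 to Col4a3 are lowest in con.

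Several genes of salt and calcium transport in the distal nephron rose in diabetic controls, with smaller changes in diabetic VHLΔPT mice. Slc12a1 encodes NKCC2, the furosemide-sensitive cotransporter of the thick ascending limb. It lay at 9710, 11999 and 10789 in con, 16183 and 16385 in VHLΔPT, 37387 and 32164 in con/STZ, and 18405 and 20711 in VHLΔPT/STZ. The 4 groups did not overlap, and the con/STZ libraries were the highest. STZ raised it by 1.68 in con (adjusted p = 0.000581), its change in VHLΔPT was 0.26 (adjusted p = 0.497), and the interaction was -1.42 (SE 0.19, adjusted p = 0.0304).

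Slc8a1, the sodium-calcium exchanger that returns calcium to blood in the distal convoluted and connecting tubule, showed the same shape with a larger contrast. It lay at 311, 287 and 332 in con, 841 and 666 in VHLΔPT, 1387 and 1599 in con/STZ, and 851 and 925 in VHLΔPT/STZ. Its VHLΔPT/STZ libraries stayed near those of VHLΔPT, and the interaction was -2.02 (SE 0.19, adjusted p = 0.0211). Wnk1, a kinase upstream of the thiazide-sensitive cotransporter, went from 6308 to 6678 in con and 9997 to 10178 in VHLΔPT to 16070 and 18105 in con/STZ but 12205 and 10518 in VHLΔPT/STZ (interaction -1.22, SE 0.15, adjusted p = 0.0286). Trpm7, a magnesium channel fused to a kinase, and Tmem72 had interactions of -1.04 each.

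Of 15 distal convoluted and connecting tubule genes, these 4 (Trpm7, Wnk1, Slc8a1 and Tmem72) passed the interaction test lower, where 1.41% of all genes were called lower, 0 passed in the other direction, and the median interaction was -0.92 against 0.03 over all genes tested. The list's median STZ change was 1.03 in con, where 13 members passed higher, and 0.20 in VHLΔPT. With the length trend removed the median interaction was -0.42 and none of the 4 was called. For comparison, 14.1% of all genes passed higher for STZ in con and 14.1% lower at an adjusted p under 0.05. Its members ran to 1.15 for Pvalb, a calcium buffer of this segment that did not pass. Of 15 thick ascending limb genes only Slc12a1 passed, the median was -0.62, and the members ran from -1.58 for Casr, the calcium-sensing receptor (adjusted p = 0.0709), to 0.49 for Ppp1r1b. None of 11 principal cell and none of 11 intercalated cell genes passed, with a median of -0.29 in each list and ranges from -0.75 (Nr3c2) to 0.53 (Sgk1) and from -0.74 (Kit) to 0.46 (Atp6v1g3).

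In the proximal tubule, where the deletion was made, 1 of 26 transport and endocytosis genes passed, against 1.41% of all genes called lower. Slc4a4, the basolateral bicarbonate exit pathway, lay between 13492 and 16462 in con, at 25686 and 26408 in VHLΔPT, 31600 and 32884 in con/STZ, and 24563 and 27373 in VHLΔPT/STZ. It rose by 1.12 with STZ in con (adjusted p = 0.00171) and its change in VHLΔPT was -0.01, with an interaction of -1.12 (SE 0.17, adjusted p = 0.0363). The median of the list was -0.12, and the members ran from -1.70 for Slc9a3, the sodium-hydrogen exchanger NHE3 (adjusted p = 0.054), to 0.50 for Slc22a12, the urate exchanger. Abca13, a very large transporter of the ABCA family, lay at 1507, 2115 and 1963 in con, 3708 and 3009 in VHLΔPT, 7356 and 7708 in con/STZ, and 4059 and 3846 in VHLΔPT/STZ (interaction -1.79, SE 0.22, adjusted p = 0.0286).

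Of the called genes whose mean reached 50, and leaving out predicted gene models, of which Gm38394 stood at -4.36, Zfp871 had the lowest interaction. This zinc finger gene lay at 132, 162 and 62.8 in con, 744 and 531 in VHLΔPT, 661 and 711 in con/STZ, and 560 and 266 in VHLΔPT/STZ (interaction -3.33, SE 0.61, adjusted p = 0.0416). Lcor, a corepressor of nuclear receptors, lay at 29.9, 51.2 and 29.2 in con, 170 and 151 in VHLΔPT, 236 and 244 in con/STZ, and 178 and 97.4 in VHLΔPT/STZ (interaction -3.00, SE 0.46, adjusted p = 0.036). In both genes the con libraries lay below every other library.

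Hipk2, a kinase that acts on p53, lay at 281, 309 and 188 in con, 1041 and 901 in VHLΔPT, 1163 and 1345 in con/STZ, and 902 and 483 in VHLΔPT/STZ (interaction -2.85, SE 0.41, adjusted p = 0.0312). Its VHLΔPT/STZ libraries differed from each other more than those of the other diabetic group. The same held for Lnpep, the insulin-regulated aminopeptidase (-2.53), Atp7a, a copper pump (-2.49), Lmbrd2 (-2.47) and Klhl11, a cullin adaptor (-2.44), each with VHLΔPT/STZ 2 the lower library. Erbb4, a neuregulin receptor, had an interaction of -1.89 and Sned1, a matrix protein, of -1.87, with adjusted p values of 0.0385 and 0.0446.

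Malat1, a noncoding RNA held in the nucleus, lay at 881, 1108 and 907 in con, 2553 and 2063 in VHLΔPT, 3398 and 1646 in con/STZ, and 1212 and 1258 in VHLΔPT/STZ (interaction -2.19, SE 0.39, adjusted p = 0.0385). It was the 1 of 6 nuclear noncoding RNAs that passed, against 1.41% of all genes called lower. The list's median was -1.33, and it ran from -4.93 for Xist, which rested on the single library con/STZ 2, to 0.61 for Gas5.

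Of 34 histone and chromatin modifiers 8 passed, all lower, where 1.41% of all genes were called lower. The paper's network of histone modification genes, drawn from these same libraries, names each of the 8. Their number and direction are therefore not independent evidence. An unadjusted p under 0.05 was held by 27 members in the lower direction and 0 in the higher, where 13.2% and 12.8% of all genes had one. The median interaction was -0.86, made of 0.63 in con and -0.22 in VHLΔPT. The members that passed were Kmt2a (-1.58), Kmt2c (-1.41) and Kmt2d (-1.22), which methylate histone H3 at enhancers and promoters, Ash1l (-1.30), another histone methyltransferase, the acetyltransferases Ep300 (-1.29) and Kat6a (-1.34), Arid4b (-1.31), a subunit of the Sin3 deacetylase complex, and Huwe1 (-1.05), a ubiquitin ligase. Arid5b had the lowest value (-1.81, adjusted p = 0.0594) and the demethylase Kdm1a the highest (0.02).

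Kmt2a shows the shape in the libraries. It lay at 579, 673 and 433 in con, 1237 and 954 in VHLΔPT, 1298 and 1275 in con/STZ, and 969 and 741 in VHLΔPT/STZ, so that con lay lowest, con/STZ highest, and VHLΔPT/STZ overlapped VHLΔPT. The genes of this list are long, with a median exon length of 12334 bases, and after the length trend was removed the list's median interaction was -0.31 and none of its members was called.

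Some matrix and adhesion genes had negative interactions too. Of 28 basement membrane and matrix genes 5 passed, all lower, where 1.41% of all genes did, with a list median of -0.81. With the length trend removed the median was -0.47 and none of the 5 was called. Col4a3, a collagen chain of the glomerular basement membrane that is mutated in Alport syndrome, lay at 3638, 3745 and 2617 in con, 5734 and 6896 in VHLΔPT, 6030 and 5882 in con/STZ, and 4628 and 3917 in VHLΔPT/STZ (interaction -1.42, SE 0.24, adjusted p = 0.0385). Here VHLΔPT reached the level of con/STZ, and VHLΔPT/STZ lay between con and both. Its partner chain Col4a5 had an interaction of -1.03, the laminin chain Lama2 of -1.22, perlecan (Hspg2) of -1.31 and agrin (Agrn) of -0.86. Col4a6 (-2.10, adjusted p = 0.384), at values under 52, and Timp1 (1.63, adjusted p = 0.566) marked the ends of the list without passing.

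Of 22 integrin and focal adhesion genes 3 passed, all lower, against the same 1.41% of all genes. These were Itgb8 (-1.73), whose integrin activates latent TGF-beta, Itgav (-0.81), its alpha partner, and Itga1 (-1.09), a collagen receptor chain, and the list ran up to 0.33 for Ilk with a median of -0.31, which was -0.11 with the length trend removed. Of 12 podocyte genes Cd2ap, an adaptor at the slit diaphragm, passed (-0.79, adjusted p = 0.039), and the others ran from -1.28 (Dach1) to 0.62 (Tcf21). Of 14 endothelial genes Ptprb, a phosphatase of endothelial junctions, passed (-1.02, adjusted p = 0.0385), and Nos3 was at 0.37. The list medians were -0.33 and -0.20, and with the length trend removed -0.10 and -0.20. With that trend removed Itgb8 stood at -1.28, Itgav at -0.37, Itga1 at -0.38, Cd2ap at -0.16 and Ptprb at -0.48, and none of them was called.

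The genes that the study itself names were chosen on these libraries, so their direction is not independent evidence. Of 10 glomerular genes 6 passed lower (Tjp1, Col4a3, Col4a5, Itgb8, Ptprb and Ogt), where 1.41% of all genes did, with a median of -1.08. With the length trend removed the median was -0.82 and none of the 6 was called. Itgb8 went from -1.73 to -1.28 and Ptprb from -1.02 to -0.48. Tjp1, the tight junction protein ZO-1, had an interaction of -1.18 and Ogt, which adds N-acetylglucosamine to proteins, of -1.26. The interactions of Nid2 (-0.87, adjusted p = 0.0511), Lamc1 (-0.80, adjusted p = 0.0706), Vcl (-1.13, adjusted p = 0.071) and Ctss (0.72, adjusted p = 0.108) did not pass.

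Of 15 tubular genes 5 passed lower, where 1.41% of all genes did, again with a median of -1.08. With the length trend removed the median was -0.62, Nfat5 went from -1.47 to -0.77 and Fryl from -1.08 to -0.47, and none of the 5 was called. Nox4, the oxidase that makes hydrogen peroxide in tubule cells, lay at 5734, 5547 and 5442 in con, 7708 and 8489 in VHLΔPT, 13041 and 16462 in con/STZ, and 10492 and 11636 in VHLΔPT/STZ. Its groups did not overlap and its interaction was -0.94 (SE 0.17, adjusted p = 0.0407). The others were Fryl (-1.08), Nfat5 (-1.47), Slc12a1 and the clathrin heavy chain Cltc (-0.88). Hif1a, the oxygen-sensitive subunit itself, missed the threshold at -0.80 (SE 0.18, adjusted p = 0.054), with 1298, 1261 and 1270 in con, 1647 and 2094 in VHLΔPT, 2408 and 2248 in con/STZ, and 2102 and 1790 in VHLΔPT/STZ.

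The remaining tubular genes had negative interactions that did not pass, from -0.78 for Pkn2 to -1.70 for Slc9a3, with Notch1 at -1.19, Btbd7 at -1.45, Rictor at -1.09, Clock at -0.84, Pik3c2a at -1.49, Eea1 at -0.91 and Kdm1b at -0.86, at adjusted p values between 0.0506 and 0.0667. Of 6 genes that the study named between the diabetic groups, Ceacam2, Slc12a1 and Abca13 passed, against 1.72% of all genes. Gm853 had an interaction of 0.82 (adjusted p = 0.0627) and Ugt2b37 of 0.42 (adjusted p = 0.808). Zbtb16, a zinc finger protein, stood at -2.29 (adjusted p = 0.196), and its con libraries ranged from 46.8 to 338.

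Genes of osmolyte uptake and metabolism held further calls. Nfat5, the factor that cells use against high salt, lay at 696, 967 and 813 in con, 1635 and 1632 in VHLΔPT, 1986 and 1857 in con/STZ, and 1421 and 1348 in VHLΔPT/STZ (interaction -1.47, SE 0.19, adjusted p = 0.0304). Its target Slc5a3, the myo-inositol transporter, lay at 1816, 1992 and 1909 in con, 2789 and 2689 in VHLΔPT, 6211 and 5450 in con/STZ, and 3791 and 3226 in VHLΔPT/STZ (interaction -1.26, SE 0.15, adjusted p = 0.0286). These were the 2 of 10 osmotic response genes that passed, where 1.41% of all genes were called lower. The list's median was 0.12, with S100a4 highest at 0.46. Ppargc1a, a coactivator of mitochondrial genes, was the 1 of 28 genes of fatty acid oxidation and PPAR-alpha that passed (-0.90, adjusted p = 0.0405), against the same 1.41%.

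Genes with higher interactions were, at the median, short and lower in diabetic controls than in con. Smoc1, a secreted matricellular protein, lay at 92.1, 117 and 103 in con, 46.1 and 54.8 in VHLΔPT, 53.9 and 46.4 in con/STZ, and 79.7 and 107 in VHLΔPT/STZ. Its VHLΔPT/STZ libraries returned to the range of con or just below it, and the interaction was 1.90 (SE 0.31, adjusted p = 0.0375). Tmem119, a membrane protein known from microglia and osteoblasts, had an interaction of 1.38 (SE 0.22, adjusted p = 0.0363).

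Hsd17b2, which inactivates testosterone and estradiol, lay at 652, 558 and 548 in con, 441 and 411 in VHLΔPT, 181 in both con/STZ libraries, and 363 and 255 in VHLΔPT/STZ. The groups did not overlap, and con/STZ was the lowest (interaction 1.2, SE 0.24, adjusted p = 0.0467). Rgcc, a cell cycle regulator induced by complement, had an interaction of 1.13. Hbegf, a ligand of the EGF receptor, stood at 0.73 as the 1 of 15 tubular injury and repair genes that passed, against 0.305% of all genes called higher. Hbegf lay between 658 and 692 in con, at 543 and 579 in VHLΔPT, 330 and 337 in con/STZ, and 465 and 460 in VHLΔPT/STZ.

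The other named higher genes lay close together. They were Mettl23 (0.99), an arginine methyltransferase, Mthfsl (0.98), a copy of a folate enzyme gene that can share reads with it, Lrrc8a (0.97), the obligate subunit of the volume-regulated anion channel, Hspe1 (0.95), the mitochondrial co-chaperonin, Wdr83os (0.94) and Anapc13 (0.93), a subunit of the anaphase-promoting complex. Hspe1 lay at 5146, 3844 and 4617 in con, 3176 and 2779 in VHLΔPT, 2611 and 2661 in con/STZ, and 3492 and 3236 in VHLΔPT/STZ. For Hspe1 the con libraries lay above all others.

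All 76 mitochondrial ribosomal protein genes tested had an interaction above 0. Of these, 3 passed (Mrpl38 at 0.68, Mrps7 at 0.75 and Mrps36 at 0.84) and 61 had an unadjusted p under 0.05, where 0.305% of all genes were called higher and 12.8% had such a p in that direction. With the length trend removed, 32 had such a p and none was called. The median was 0.58, from 0.18 for Mrpl19, and was made of -0.46 in con and 0.13 in VHLΔPT. In Mrps7 the values were 2846, 2772 and 3321 in con, 2140 and 2278 in VHLΔPT, 1736 and 1898 in con/STZ, and 2277 and 2258 in VHLΔPT/STZ, with con/STZ the lowest.

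The 74 cytosolic ribosomal protein genes, all above 0, had a median of 0.51, from Rpl4 (0.19) to Rpl34 (1.5), and the 74 oxidative phosphorylation genes a median of 0.46, from Ndufs1 (-0.14) to Ndufs5 (1.6). No member of either list passed. These lists hold short genes, with median exon lengths of 2394, 1835 and 1737 bases for the mitochondrial ribosome, cytosolic ribosome and oxidative phosphorylation lists. After the length trend was removed their medians were 0.33, 0.17 and 0.06.

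**Figure D4:**
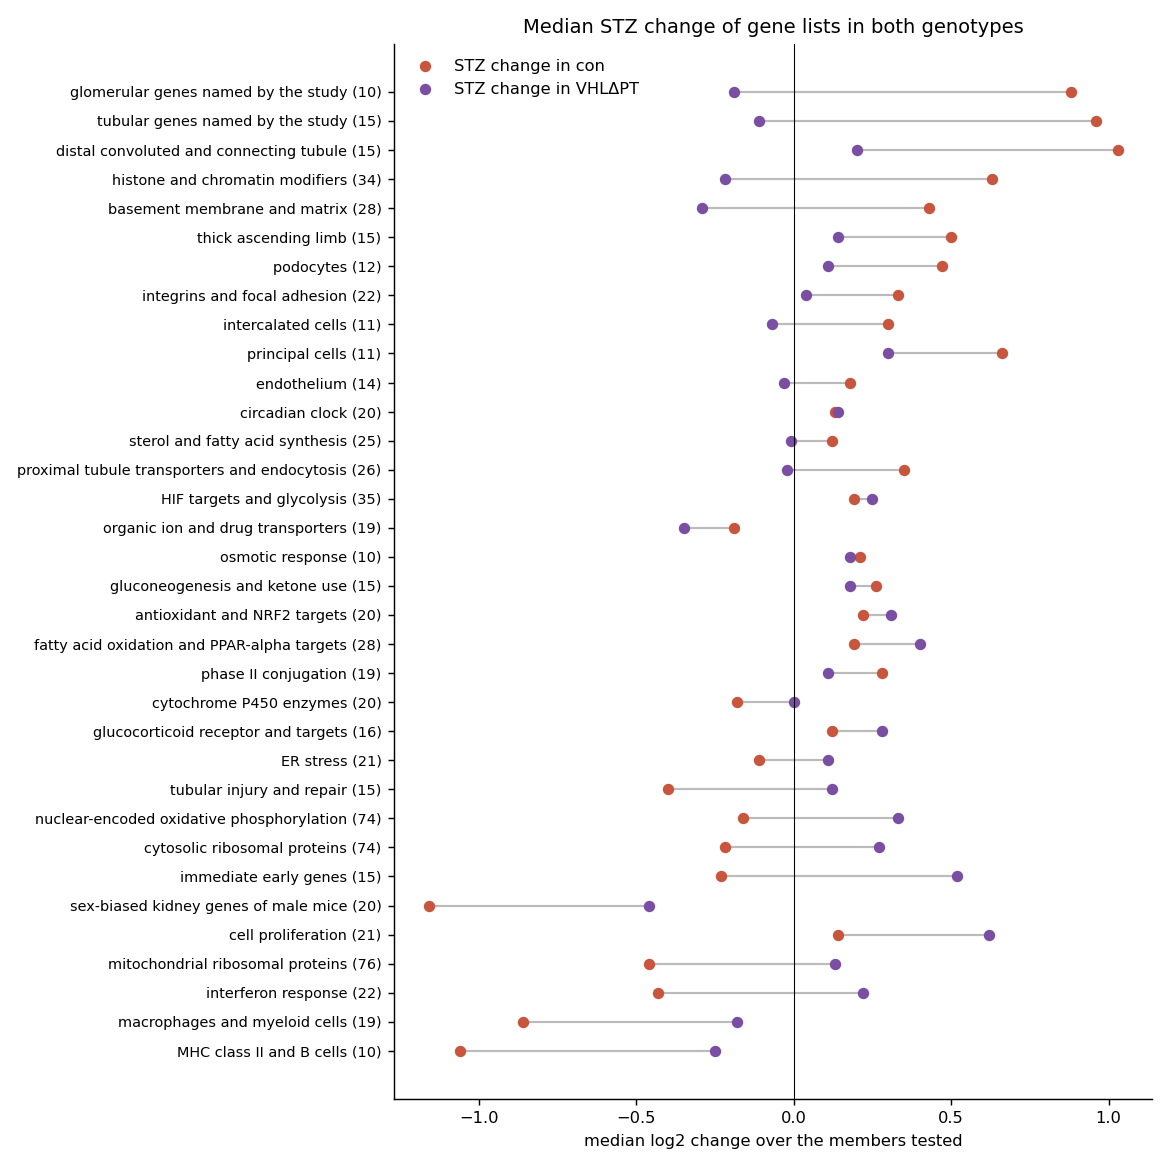
Median log2 STZ change over the tested members of each list with at least 10 of them, in con (red) and in VHLΔPT (purple), with the number of members in brackets. Lists are ordered by their median interaction. The distal convoluted and connecting tubule list stands at 1.03 and 0.20, and the mitochondrial ribosomal list at -0.46 and 0.13.

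The change with gene length ran through the whole table. In 10 bins of genes ordered by merged exon length, the median interaction went from 0.53 in the shortest to -0.51 in the longest. The median STZ change went from -0.39 to 0.43 in con and from 0.12 to -0.09 in VHLΔPT. Of the genes with a lower interaction 122 lay in the longest bin and 0 in the shortest, and of those with a higher interaction 13 lay in the shortest and 0 in the longest. After the trend was removed, the median of the lower genes went from -1.08 to -0.62 and that of the higher genes from 0.82 to 0.55. Ceacam2 (5.18), Lcor (-2.71) and Slc12a1 (-1.29) kept most of their size, while Wnk1 went to -0.42 and Huwe1 to -0.24.

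**Figure D5:**
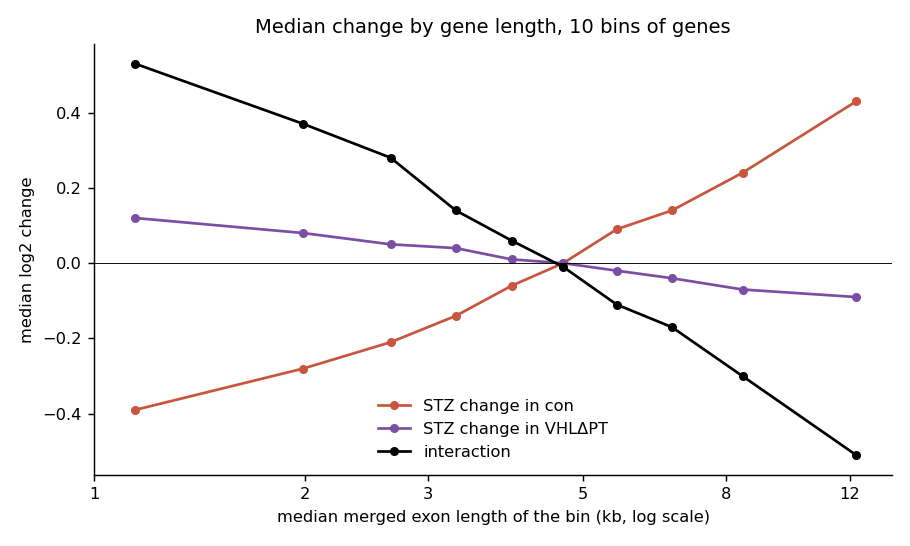
Median log2 change in 10 bins of genes of equal number, against the median merged exon length of each bin in kilobases on a log axis. The interaction (black) runs from 0.53 to -0.51, the STZ change in con (red) from -0.39 to 0.43, and the STZ change in VHLΔPT (purple) from 0.12 to -0.09.

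The STZ change in con and the STZ change in VHLΔPT share no library, so each can be read in the genes of the other. Across the 14437 genes their correlation was 0.38, a description over genes, which are not independent. The 1269 genes called higher in con, with a median of 0.85 there, had a median of 0.03 in VHLΔPT, and 53.0% of them rose, against 49.7% of all genes. The 992 genes called lower in con, with a median of -0.87 there, had a median of -0.27 in VHLΔPT, and 79.9% of them fell, against 50.3% of all genes. Falls in diabetic controls were shared with diabetic VHLΔPT mice to a larger extent than rises in these libraries, a difference in counts that was not tested. The genes called higher were also longer, with a median of 8042 bases against 2476.

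Several genes with large STZ changes in con had changes of the same sign in VHLΔPT, where none of them passed (adjusted p values from 0.207 to 0.375, limma). They were picked after their values were seen, so their interactions are given with 95% intervals and no test of likeness. Cyp4a14, a PPAR-alpha target that hydroxylates fatty acids, lay at 727, 430 and 1248 in con, 419 and 1105 in VHLΔPT, 20610 and 13258 in con/STZ, and 3077 and 16385 in VHLΔPT/STZ. All diabetic libraries were above all others, the changes were 4.50 in con and 3.38 in VHLΔPT, and the interval of the interaction, from -3.51 to 1.27, was wide.

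Gsta1, a glutathione transferase, changed by 2.53 in con and 4.05 in VHLΔPT (interval -0.21 to 3.25), Prlr, the prolactin receptor, by 2.97 and 2.18 (-2.13 to 0.56), and Slc6a12, the betaine transporter, by 2.09 and 2.21 (-1.78 to 2.02). Sgk1, a kinase induced by aldosterone and glucocorticoids, lay between 2753 and 5522 in con, at 2178 and 3069 in VHLΔPT, 9432 and 8482 in con/STZ, and 9694 and 6896 in VHLΔPT/STZ. Its interval ran from -0.42 to 1.48. Odc1, which makes putrescine, fell by 1.34 on the log2 scale in con and changed by -0.88 in VHLΔPT (-0.08 to 1.00), and the chemokine Cxcl14 changed by -1.51 and -1.18 (-0.50 to 1.16). A difference as large as 1.5-fold between genotypes lies inside each of these intervals.

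Most sex-biased genes of the male mouse kidney passed for STZ in control mice. Of 20 such genes 13 passed lower and 4 higher in con, where 14.1% of all genes passed in each direction, and the median STZ change was -1.16 in con and -0.46 in VHLΔPT. The group con/STZ holds the library with Xist, and without it 3 passed lower and 1 higher, where 4.01% and 4.94% of all genes did, with a median of -0.92 in con. None passed the interaction test, whose median was 0.53 (0.14 without VHLΔPT/STZ 1 and 1.05 without VHLΔPT/STZ 2), from Abcc3 (-2.49, adjusted p = 0.147) to Adh1 (1.24, adjusted p = 0.0606). Adh1, an alcohol dehydrogenase, lay at 20864, 18707 and 20155 in con, 17415 and 14846 in VHLΔPT, 5608 and 5277 in con/STZ, and 13691 and 7872 in VHLΔPT/STZ. The con/STZ libraries were the lowest, and VHLΔPT/STZ lay between them and the mice without STZ.

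Of 35 HIF targets and glycolysis genes, the pathway that Vhl loss switches on, 0 passed, where 1.72% of all genes were called. At that share a list of this size would often hold no call, so the 0 is no result about the pathway. The median interaction was -0.01, and the STZ changes had medians of 0.19 in con and 0.25 in VHLΔPT. The list's median genotype change was 0.07 without STZ and 0.1 with STZ. Member interactions ran from -1.24 for the lactate exporter Slc16a3 (adjusted p = 0.36) to 1.12 for Ddit4, an inhibitor of mTOR (adjusted p = 0.132). In the fatty acid list the ends were the receptor Ppara (-1.63, adjusted p = 0.117) and its target Angptl4 (1.81, adjusted p = 0.0874), and in the gluconeogenesis list the glucose-releasing G6pc was highest (0.90, adjusted p = 0.391).

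The immune cell lists held no interaction call, which lists this small would often show with 1.72% of all genes called. Of 19 macrophage and myeloid genes 11 passed lower for STZ in con, where 14.1% of all genes did. Their median STZ change in con was -0.86, and -0.90 without con/STZ 2. The interaction passed for 0 of these genes, where 1.72% of all genes were called. Its median over them was 0.72, or 0.36 with the length trend removed. Their summed values were 5979 to 7449 in con, 5011 to 5633 in VHLΔPT, 3908 to 4211 in con/STZ and 4182 to 4906 in VHLΔPT/STZ. Of 10 MHC class II and B cell genes 0 passed, with a median of 0.84 (0.49 without con/STZ 1) and sums of 12962 to 17039, 10240 to 10622, 5350 to 8859 and 8275 to 9553 in the same order. Members of these lists ran from Ptprc (-0.64) to Fcgr1 (1.08) and from Cd79b (-0.30) to Ighm (2.04), and those of the 4 T cell genes tested from Cd4 (-0.69) to Lck (0.97).

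Lists of other tissues that a cortex sample can hold gave no call either, where 1.72% of all genes were called. With so few members tested, the lack of a call says nothing about these tissues. The summed values of 8 adipocyte genes ran from 1628 to 14356 within con alone and from 2279 to 9735 in VHLΔPT/STZ, and the members tested had a median of 0.97, from Ucp1 (-0.34) to Retn (2.16). That median was -0.22 without VHLΔPT/STZ 2 and 2.66 without VHLΔPT/STZ 1. Red blood cell genes had a median of 0.65, from Alas2 (0.54) to Hba-a2 (1.12), with sums of 9303 to 22063 in con and 13411 to 20303 in VHLΔPT/STZ. Of the adrenal genes, at sums of at most 370, 3 were tested (Hsd3b1 -0.20 to Akr1b7 1.04), and of the muscle genes Mylpf alone (0.60). Smooth muscle genes ran from Notch3 (-0.99) to Tagln (1.16) with a median of 0.30. The part of these tissues in the interaction was not tested.

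The remaining lists held no call, apart from Hbegf in the tubular injury list and Nox4 as the 1 of 20 antioxidant genes that passed. Of all genes, 1.72% were called. The median interactions were 0.70 for interferon response, from Mx1 (-0.93) to Oas1a (1.43), 0.57 for cell proliferation, from Mcm6 (-0.75) to Aurkb (1.33), and 0.53 for immediate early genes, from Fosb (-0.03) to Nr4a1 (2.5, adjusted p = 0.0598). They were -0.02 for interferon response without con 3, 0.22 for cell proliferation without VHLΔPT/STZ 2 and 0.32 for immediate early genes without con 1. The medians were 0.35 for ER stress, from Ern1 (-0.84) to Asns (1.41), 0.29 for glucocorticoid targets, where Pdk4 was highest (1.58), and 0.15 for antioxidant genes, where Hmox1 was highest (1.56). For tubular injury and repair the median was 0.40, from Spp1 (-1.02) to Krt20 (2.83, adjusted p = 0.121).

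Further lists without a call had smaller medians. These were -0.18 for the circadian clock, from Nr1d1 (-1.27) to Cry1 (1.15), -0.15 for sterol and fatty acid synthesis, from Elovl6 (-0.90) to Mvd (0.58), 0.09 for organic ion and drug transporters, from Abcc2 (-0.96) to Slc22a28 (0.75), and 0.21 for cytochrome P450 enzymes, where Cyp2d9 was highest (1.12). Phase II conjugation genes had a median of 0.19, from Ugt1a2 (-2.72, adjusted p = 0.381) to Nat8 (0.95). Ugt1a2, a glucuronosyltransferase, went from at most 81.3 in the libraries without STZ to 10202 and 9274 in con/STZ and to 437 and 5849 in VHLΔPT/STZ, so that the libraries of the last group stood far apart.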

How the data were processed

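RNA of kidney cortex was sequenced in 9 libraries, each from pooled RNA of 2 mice (18 mice), in the groups con (3), VHLΔPT (2), con/STZ (2) and VHLΔPT/STZ (2), taken from the sample titles. The labels do not say that equal replicate numbers mark a shared litter, batch or day. Between libraries of equal number in different groups, 4 of 12 correlations of deviations exceeded 0.1 (range -0.109 to 0.273). Deviations in a group of 2 libraries mirror each other, so pairs of such groups repeat a value, as 0.273 does. The correlations therefore cannot decide whether the numbers mark pairs. Since the labels give no pairing, the numbers were not used as pairs.

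The deposited signal values are gene counts that the authors had quantile normalized. For these the authors used Trim Galore 0.4 for trimming, STAR 2.5.2b for alignment to GRCm38, and featureCounts 1.5.2 with StringTie 1.3.3b for counting, as the submitters' processing notes list them. The stage of the quantile normalization is not given in the sources used here. The totals lie between 21951722 and 21952234, and 85.1% of the values are not whole, so the depth of a library is unknown and count models were not fitted. Quantile normalization forces the same distribution on each library, which hides any overall shift. The deposited fold changes and p-values, which the authors made with DESeq2 1.26.0, were not used. Of the gene names, 24 had been turned into dates and were restored from their identifiers.

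On log2(value + 1), 4 group means were fitted with limma 3.58.1 in R 4.3.3 with a mean-variance trend, to genes with a mean of at least 10. The spread had 5 residual and 3.8 prior degrees of freedom. All p values are two-sided, with Benjamini-Hochberg adjustment across 14437 genes, and a call needs an adjusted p under 0.05 and a fold over 1.5. Fold changes understate those of genes near the pseudocount. Where a fit leaves a group with 1 library, that library is assumed to vary like the others. The fit was tested on simulated data. Merged exon lengths and coordinates come from GENCODE M21 by gene identifier (99.88% of the genes tested).

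Genes named are the 12 largest negative and the 12 largest positive called interactions with a mean of at least 50 that kept sign and fold in every fit without 1 library, leaving out predicted models and pseudogenes. Named too are Vhl, the genes of 3 lists from the study, and the called, lowest and highest members of the other lists. Gsta1, Slc6a12, Odc1, Cxcl14, Prlr, Ceacam1 and Gm38394 were added after their values were seen, and Cyp4a14 and Sgk1, although list members, are described with them. Some genes that these rules cover are not reported here. The 42 gene lists were written from general knowledge and the paper, and lists, genes and tests were chosen with earlier results of these data known. Alternatives were another pseudocount, filter, scaling, trend or weighting, removal of the length trend, a replicate block, and leaving out libraries.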

Additional observations from a re-analysis of the deposited data

Results flagged for a closer look

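For 60 of the genes named above, the STZ change differed between VHLΔPT and control mice by the interaction test itself. Values are the STZ change in VHLΔPT minus that in con on the log2 scale. Values above 0 were those of Azgp1 (9.39), Ceacam2 (5.24), Smoc1 (1.90), Tmem119 (1.38), Hsd17b2 (1.2), Rgcc (1.13), Mettl23 (0.99), Mthfsl (0.98), Lrrc8a (0.97), Hspe1 (0.95), Wdr83os (0.94) and Anapc13 (0.93). The mitochondrial ribosomal genes and Hbegf were also above 0, with Mrps36 (0.84), Mrps7 (0.75), Hbegf (0.73) and Mrpl38 (0.68). The largest values below 0 were those of Gm38394 (-4.36), Zfp871 (-3.33), Lcor (-3.00), Hipk2 (-2.85), Lnpep (-2.53), Atp7a (-2.49), Lmbrd2 (-2.47), Klhl11 (-2.44), Malat1 (-2.19), Slc8a1 (-2.02), Erbb4 (-1.89), Sned1 (-1.87) and Abca13 (-1.79). Genes of transport, osmolytes, oxidants and metabolism followed with Slc12a1 (-1.42), Slc4a4 (-1.12), Wnk1 (-1.22), Trpm7 (-1.04), Tmem72 (-1.04), Nox4 (-0.94), Nfat5 (-1.47), Slc5a3 (-1.26) and Ppargc1a (-0.90). Histone and chromatin modifiers held Kmt2a (-1.58), Kmt2c (-1.41), Kmt2d (-1.22), Ash1l (-1.30), Ep300 (-1.29), Kat6a (-1.34), Arid4b (-1.31) and Huwe1 (-1.05). Among matrix, junction and other study genes were Col4a3 (-1.42), Col4a5 (-1.03), Lama2 (-1.22), Hspg2 (-1.31), Agrn (-0.86), Itgb8 (-1.73), Itgav (-0.81), Itga1 (-1.09), Tjp1 (-1.18), Ptprb (-1.02), Cd2ap (-0.79), Ogt (-1.26), Fryl (-1.08) and Cltc (-0.88).

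Groups of 2 or 3 libraries are too small for a search for outlying libraries, and no other measurement of these mice was analysed here.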

How the results depend on the processing

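The 248 called genes kept their sign in every alternative with a value for them, except 3 after removal of the length trend, but most calls were lost in some of them. In the order lower and higher, the interaction called 204 and 44 genes as reported, 422 and 139 with a mean of at least 50, 0 and 1 without the trend, 419 and 132 with library weights, 1 and 1 after removal of the length trend, 0 and 1 without con/STZ 2 and VHLΔPT/STZ 2, and 1337 and 948 at an unadjusted p. Without the filter 27 genes were called higher. With a replicate block, 0 and 0 genes were called, with 3455 genes at an unadjusted p under 0.05. Whether the replicate numbers mark pairs cannot be decided from the labels or the correlations. Leaving out 1 library gave 0 to 520 genes lower and 0 to 186 higher. STZ in con called 2261 genes, 1437 after removal of the length trend, 1387 without con/STZ 2 and VHLΔPT/STZ 2, 4082 with no fold threshold, and 1067 to 2380 without 1 library. STZ in VHLΔPT called 1 gene, 0 among genes with no zero and 0 without con/STZ 2 and VHLΔPT/STZ 2, 778 at an unadjusted p with the fold threshold (1593 without it), and 0 to 211 without 1 library.

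No called gene named here changed sign. Signs turned for 18 genes whose interaction had not passed. Without 1 library, ranges were -0.31 to 1.00 for Ugt2b37, -0.07 to 0.11 for Kdm1a, -0.02 to 3.29 for Timp1, -2.27 to 0.88 for Cd4, -2.29 to 0.78 for Mcm6, -1.23 to 1.17 for Fosb, -2.32 to 0.09 for Cyp4a14, -2.52 to 1.84 for Ucp1, -0.66 to 0.25 for Hsd3b1, -0.52 to 2.60 for Akr1b7, -10.26 to 0.39 for Xist, -0.83 to 1.06 for Slc6a12 and -0.04 to 0.71 for Cxcl14. Without con/STZ 2 and VHLΔPT/STZ 2 the values were -0.66 for Akr1b7, 1.82 for Cd4, -0.17 for Cxcl14, -0.06 for Kdm1a, 0.06 for Prlr, -0.26 for Slc6a12, 3.39 for Ucp1 and 0.44 for Xist. After removal of the length trend they were -0.02 for Cxcl14, 0.15 for Fosb, 0.16 for Ndufs1, 0.05 for Ptprc, -0.14 for Rpl4, -0.15 for S100a4 and -0.04 for Slc6a12. With the replicate block they were -0.28 for Slc6a12 and -0.31 for Ugt2b37, and with library weights 0.69 for Ucp1. Without 1 library, list medians also turned sign for adipocytes (-0.22 to 2.66), adrenal cortex (-0.52 to 0.66), smooth muscle (-0.11 to 0.43), interferon response (-0.02 to 1.07) and, near 0, for HIF targets (-0.17 to 0.22), gluconeogenesis (-0.05 to 0.16), the clock (-0.31 to 0.15), osmotic response (-0.02 to 0.16), organic ion transporters (-0.12 to 0.12) and phase II conjugation (-0.18 to 0.24). The causes were not tested. Depth is unknown, and with 2 or 3 pools a group, small differences were not detectable.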
